A study of Sus scrofa with 14 samples.

Results

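Expression of 9 genes of fatty acid oxidation was examined in pig adipose tissue: CPT1A, CPT1B, CPT2, ACADM, ACADL, ACADVL, HADHA, HADHB and PPARA. They were chosen by name, from their Sus scrofa symbols, with earlier results of these data known. All 9 were found among the 21280 protein-coding genes of the count and TPM (transcript abundance corrected for length) tables, and all 9 passed the filter on low values in every comparison. Tissue came from the greater omentum (GOM, a visceral depot) and from the upper layer of backfat (ULB, a subcutaneous depot) of female wild boars (WB) and female Bama pigs (BM) aged 2 years, with 2 animals per breed. The wild boars had been taken into captivity while young, the Bama pigs came from a line that is not inbred, all animals received the same feed and were fasted before slaughter, and no group was treated. Of the study's 8 RNA-seq libraries, 7 were used. WB-GOM, WB-ULB and BM-GOM (breed and depot) had 2 each, and BM-ULB had only its replicate 2, the other not being used here. Hi-C was read for 7 libraries with the same labels. Both depots came from the same 4 animals, and the numbers were not stated to mark an animal, so depot comparisons treated all libraries as separate.

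Fatty acids are activated to acyl-CoA and cross the inner mitochondrial membrane as carnitine esters. CPT1, on the outer membrane, makes the ester and is the controlled step of the pathway. CPT1A is the form typical of liver and CPT1B the form typical of muscle. CPT2 rebuilds acyl-CoA inside the matrix, where acyl-CoA dehydrogenases (ACADVL for very long, ACADL for long and ACADM for medium chains) open each round of β-oxidation. The mitochondrial trifunctional protein, built of HADHA and HADHB, carries out the remaining steps on long chains. PPARA is a nuclear receptor that binds fatty acids and switches on many of these genes in liver. White adipose tissue mainly stores and releases fatty acids, and in it the pathway is less prominent than in liver, heart or brown fat.

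Upstream sequences were read from the RefSeq annotation of Sscrofa11.1 for the genes on which the results below turn. HADHB (chr3:112712894-112753121, minus strand) and HADHA (chr3:112753343-112797627, plus strand) lie head to head with 221 bases between their starts. Of 19485 neighbouring pairs of protein-coding genes, 589 (3.02%) are arranged head to head at this distance or less. The whole interval is shown because both subunits of 1 enzyme are read outwards from it. It spans chr3:112753122-112753342 (plus strand, GC content 62.9%). For ACADM, CPT1A and CPT2 the 250 bases upstream of the start are shown, on the gene's own strand. ACADM is shown as the member with the lowest depot ratio in wild boar and with a compartment score unlike those of the others, CPT1A as the member with the highest depot ratio, and CPT2 as the only member with a nuclear receptor half-site here. Their positions are chr6:137575545-137575794 (minus strand), chr2:4250392-4250641 (plus strand) and chr6:159061328-159061577 (minus strand). Capitals mark matches on either strand to the GC box GGGCGG, the CCAAT box or the nuclear receptor half-site AGGTCA, none of which occurs in the interval.
HADHB to HADHA interval: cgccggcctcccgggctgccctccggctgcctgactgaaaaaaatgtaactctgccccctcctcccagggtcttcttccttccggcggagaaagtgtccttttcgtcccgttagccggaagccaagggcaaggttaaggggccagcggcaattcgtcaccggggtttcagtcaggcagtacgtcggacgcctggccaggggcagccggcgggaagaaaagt
ACADM upstream: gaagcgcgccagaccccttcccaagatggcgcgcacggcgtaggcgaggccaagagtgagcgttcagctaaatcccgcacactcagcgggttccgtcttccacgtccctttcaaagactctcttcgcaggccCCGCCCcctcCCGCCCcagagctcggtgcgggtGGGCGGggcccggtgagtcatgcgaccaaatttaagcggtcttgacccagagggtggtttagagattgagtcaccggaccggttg
CPT1A upstream: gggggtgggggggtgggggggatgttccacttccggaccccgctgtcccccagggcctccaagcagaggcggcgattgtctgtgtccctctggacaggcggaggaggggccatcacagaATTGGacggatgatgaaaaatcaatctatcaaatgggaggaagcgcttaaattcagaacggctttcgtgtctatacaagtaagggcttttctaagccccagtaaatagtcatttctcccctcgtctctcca
CPT2 upstream: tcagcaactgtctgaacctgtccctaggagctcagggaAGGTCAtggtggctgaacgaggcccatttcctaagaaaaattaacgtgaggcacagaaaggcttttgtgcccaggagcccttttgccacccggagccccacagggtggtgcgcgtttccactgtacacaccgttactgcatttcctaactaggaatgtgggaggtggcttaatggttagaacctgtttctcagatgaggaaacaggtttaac

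In these windows ACADM had 3 GC boxes, and ACADL and ACADVL had 1 each. The GC box occurred in 46.0% of 19504 promoters of the same length. CPT1A and PPARA had 1 CCAAT box each, a motif found in 31.9% of promoters, and CPT2 had 1 AGGTCA half-site, found in 12.2%. No member matched the direct repeat of that half-site with 1 base between, which the PPARs bind (0.0256% of promoters), the estrogen-related receptor site (TCAAGGTCA, 0.333%) or the palindromic NRF1 site (0.754%). The first and second of these longer motifs contain AGGTCA. The window of ACADVL overlaps the neighbouring gene DLG4, and those of HADHA and HADHB overlap each other's gene.

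The tissue carried adipocyte RNA in every library, with a TPM of 2387 to 5332 for ADIPOQ and of 584 to 931 for PLIN1. Over 11 adipocyte markers the summed TPM overlapped between depots and between breeds when all libraries were pooled. It was 11234 and 14875 in WB-GOM, 15035 and 20384 in BM-GOM, 17166 and 20116 in WB-ULB, and 15623 in BM-ULB. Both WB-GOM libraries were thus below all the others in this sum. The part of adipocyte RNA in the members' levels was not tested. Other tissues were also present. The summed TPM of 20 skeletal muscle markers was 780.1 in WB-ULB replicate 1 and 36.0 to 137.9 in the other 6 libraries, and 19 of the 20 were highest there. The summed TPM of 19 liver markers was 696.9 and 1697.6 in BM-GOM, 219.7 in BM-ULB and 80.9 to 238.1 in wild boar, and 15 of the 19 were higher in each Bama pig library than in each wild boar library. The summed TPM of 6 mesothelial markers was 171.9 to 570.4 in GOM and 3.5 to 20.8 in ULB, and 4 of the 6 were higher in each GOM library than in each ULB library. For 9 lymphocyte markers the sum was 145.9 or more in each GOM library and 91.2 or less in each ULB library, but only 3 of the 9 were separated in this way, and JCHAIN, a plasma cell gene, made up 99.57 to 246.96 of the GOM sums. Library totals of estimated counts ranged from 10833153 to 18627076. The 9 genes had between 233 and 4723 estimated counts each per library.

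Levels of different genes were compared in TPM, which is corrected for transcript length. HADHB had the highest mean over the 7 libraries, with a TPM of 173.89 ± 45.90 (SD), and CPT1B the lowest, with 8.83 ± 3.24. From high to low the order was HADHB, ACADM, HADHA, ACADL, ACADVL, CPT1A, CPT2, PPARA and CPT1B. Only 3 neighbours in this order kept their places in all 7 libraries, namely ACADL above ACADVL, CPT1A above CPT2, and PPARA above CPT1B. HADHB exceeded ACADM in 3 of 7 libraries, and ACADVL exceeded CPT1A in 4 of 7. The liver form of CPT1 was therefore more abundant than the muscle form in every library, the library with muscle RNA included.

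**Figure D1:**
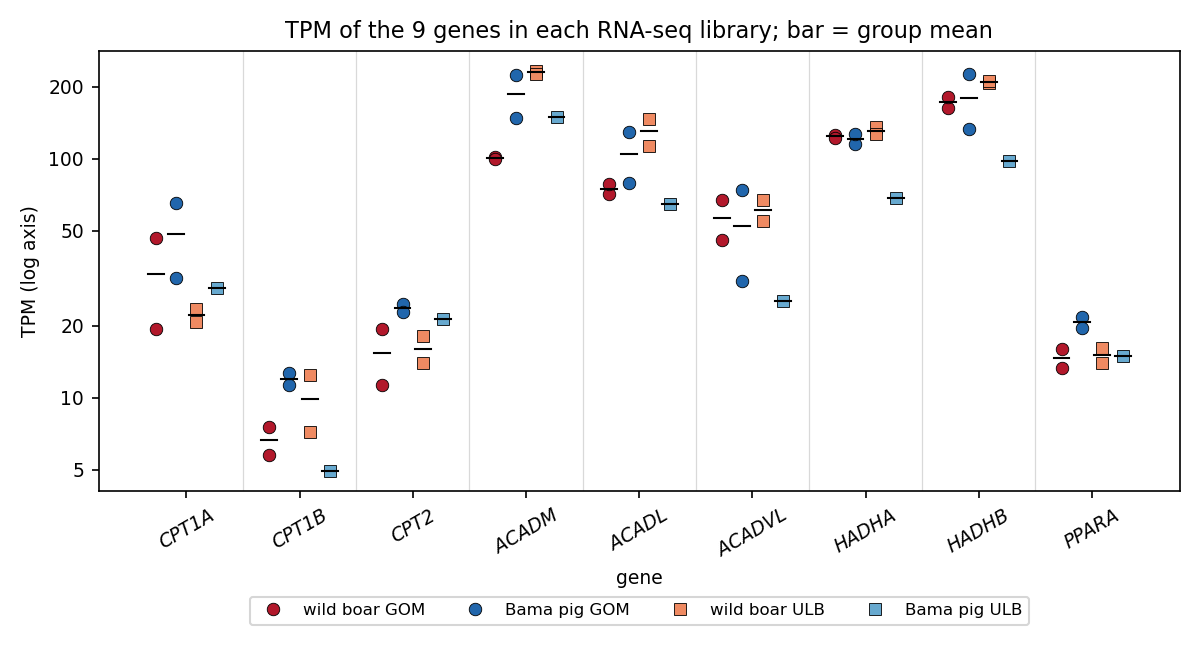
TPM of the 9 genes (log axis) in each RNA-seq library, with circles for GOM, squares for ULB and a bar at each group's mean (BM-ULB is 1 library). ACADM sits at 101.24 and 99.3 in WB-GOM against 233 and 226 in WB-ULB. In TPM the BM-ULB library is the lowest of all 7 for CPT1B, ACADL, ACADVL, HADHA and HADHB. On the scaled counts described below (CPM), BM-GOM replicate 1 is lowest for ACADL, ACADVL and HADHB.

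Differences between libraries were tested on TMM-scaled counts relative to library size (CPM), with edgeR's quasi-likelihood test and Benjamini-Hochberg adjustment over all genes tested. Calls required an adjusted p under 0.05 and a log2 fold change beyond 1 in either direction. TPM and CPM can order libraries differently. On log2(TPM + 1) the median over all genes was -0.41 for wild boar against Bama pig in GOM, and it was -0.01 in the fit on TMM-scaled counts, so breed differences read from TPM in GOM carry that shift. Genes also differed by transcript length. In the fifth of genes with the shortest transcripts, which includes ACADM and HADHB, the median deviation of log2 CPM was -0.37 in BM-GOM replicate 1, -0.26 in BM-ULB and 0.39 in WB-GOM replicate 2.

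No member passed both thresholds in any of the 4 comparisons. Between depots 3.58% of 17877 genes were called (640 genes, 410 higher and 230 lower in GOM). Between breeds 0.0241% of 16615 genes were called in GOM (4 genes) and 0.252% of 17877 in ULB (45 genes), and 0.0% were called for a depot difference that differs between breeds (0 genes, with 869 or 4.86% at an unadjusted p below 0.05 and 52 called by DESeq2). By direction, 2.29% of genes were called higher and 1.29% lower in GOM. The shares higher and lower in wild boar were 0.012% and 0.012% in GOM, and 0.0448% and 0.207% in ULB. Of the 9 members, 1 (ACADM) had an unadjusted p below 0.05 between depots, against 19.9% of all genes, and 0 had one between breeds, against 8.0% in GOM and 14.9% in ULB. The number of members called was also 0 in each alternative run, and the smallest adjusted p any of them reached there was 0.0763. In bulk tissue, fewer cells of a type and less RNA per cell cannot be told apart.

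**Figure D2:**
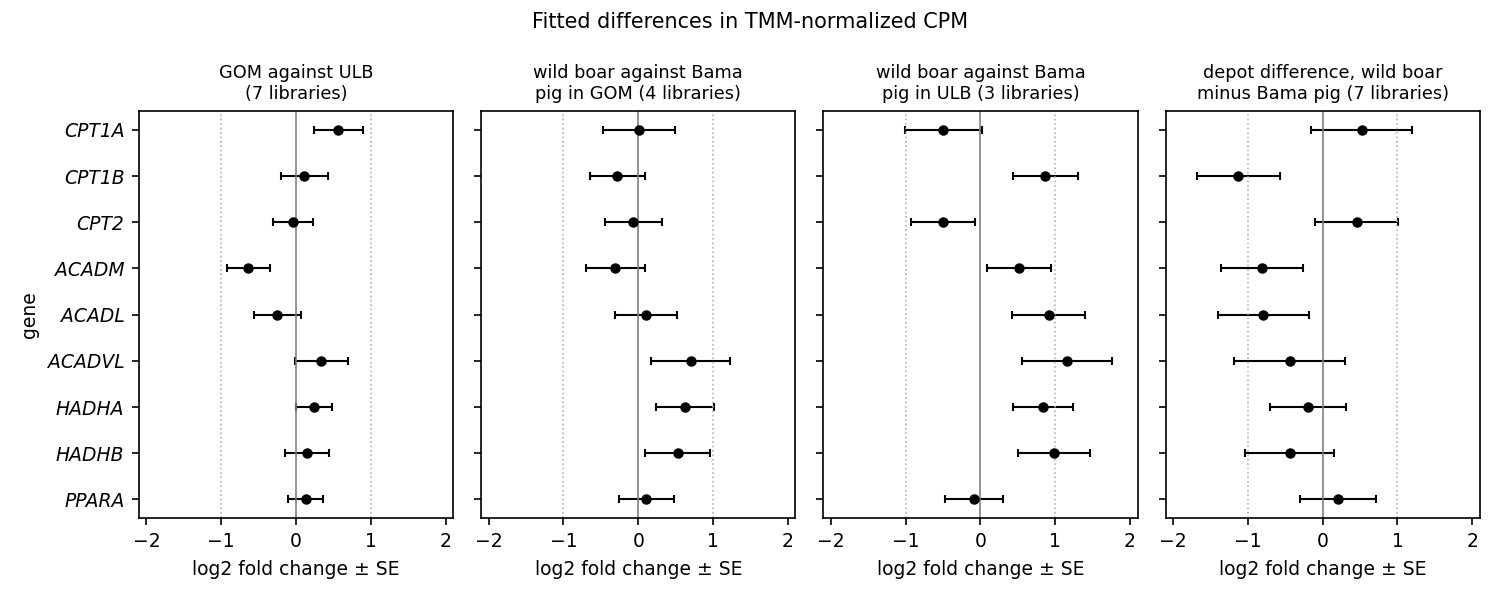
Log2 fold change ± SE of each gene in the 4 comparisons, from edgeR's fits on TMM-scaled counts, with dotted lines at a log2 fold change of -1 and 1. The ULB comparison sets 2 wild boar libraries against 1 Bama pig library and takes its spread from all 7. Between breeds in ULB the estimates of ACADM, ACADL, ACADVL, HADHA, HADHB and CPT1B lie above 0 and those of CPT1A, CPT2 and PPARA below, and none passed the test.

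CPT1A (ENSSSCG00000012880, chr2:4250642-4293914, plus strand) had a TPM of 46.5 and 19.4 in WB-GOM, 65.2 and 31.7 in BM-GOM, 20.75 and 23.4 in WB-ULB, and 28.8 in BM-ULB. In TPM 3 of the 4 GOM libraries were above every ULB library, and replicate 2 of WB-GOM was below them all, so the depots overlapped. Its log2 fold change for GOM against ULB was 0.57 (SE 0.32, adjusted p = 0.357 by edgeR's quasi-likelihood test). In CPM both WB-GOM libraries (153 and 75.1) were above both WB-ULB libraries (66.4 and 66.5). In Bama pig the CPM was 147 and 77.6 in GOM and 93.8 in ULB, so the depots overlapped on this scale too. Between breeds in GOM the log2 fold change was 0.01 (SE 0.48), and in ULB it was -0.50 (SE 0.52). In TPM BM-GOM replicate 1, with the second highest sum of liver markers, had the highest CPT1A, while replicate 2, with the highest liver sum of all libraries, had a CPT1A of 31.7. In CPM the highest library was WB-GOM replicate 1 (153, against 147 in BM-GOM replicate 1), with a liver sum of 238.1. The liver marker ALB had a TPM of 6.6 in that library, 292.99 and 873.47 in BM-GOM, and 77.67 in BM-ULB. The part of liver RNA in the CPT1A levels was not tested.

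CPT1B (ENSSSCG00000022364, chr5:155552-163536, plus strand) had a TPM of 7.52 and 5.75 in WB-GOM, 11.3 and 12.6 in BM-GOM, 7.21 and 12.5 in WB-ULB, and 4.92 in BM-ULB. The 2 WB-GOM libraries were below the 2 BM-GOM libraries, and the order of the breeds was the opposite in ULB. The log2 fold change of wild boar against Bama pig was -0.28 (SE 0.36) in GOM and 0.87 (SE 0.44) in ULB. The depot difference in wild boar minus that in Bama pig was -1.13 on the log2 scale (SE 0.55, adjusted p = 0.97 by edgeR's quasi-likelihood test), the largest such value among the members. The library with muscle RNA, WB-ULB replicate 1, had a CPT1B of 7.21 and the other WB-ULB library had 12.5. It was above 2 of the other libraries, BM-ULB and WB-GOM replicate 2, and the part of muscle RNA in it was not tested. Without that library the log2 difference between breeds in ULB was 1.14 (SE 0.54).

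CPT2 (ENSSSCG00000003851, chr6:159038129-159061327, minus strand) had a TPM of 19.4 and 11.3 in WB-GOM, 24.6 and 22.9 in BM-GOM, 18.1 and 13.9 in WB-ULB, and 21.3 in BM-ULB. All 3 Bama pig libraries were above all 4 wild boar libraries in TPM. In CPM the breeds overlapped in GOM (34.5 and 23.5 in wild boar, 29.9 and 30.2 in Bama pig), so the separation in TPM was not seen on this scale. The log2 fold changes were -0.04 (SE 0.27) between depots, -0.07 (SE 0.38) between breeds in GOM and -0.51 (SE 0.43) between breeds in ULB.

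**Figure D3:**
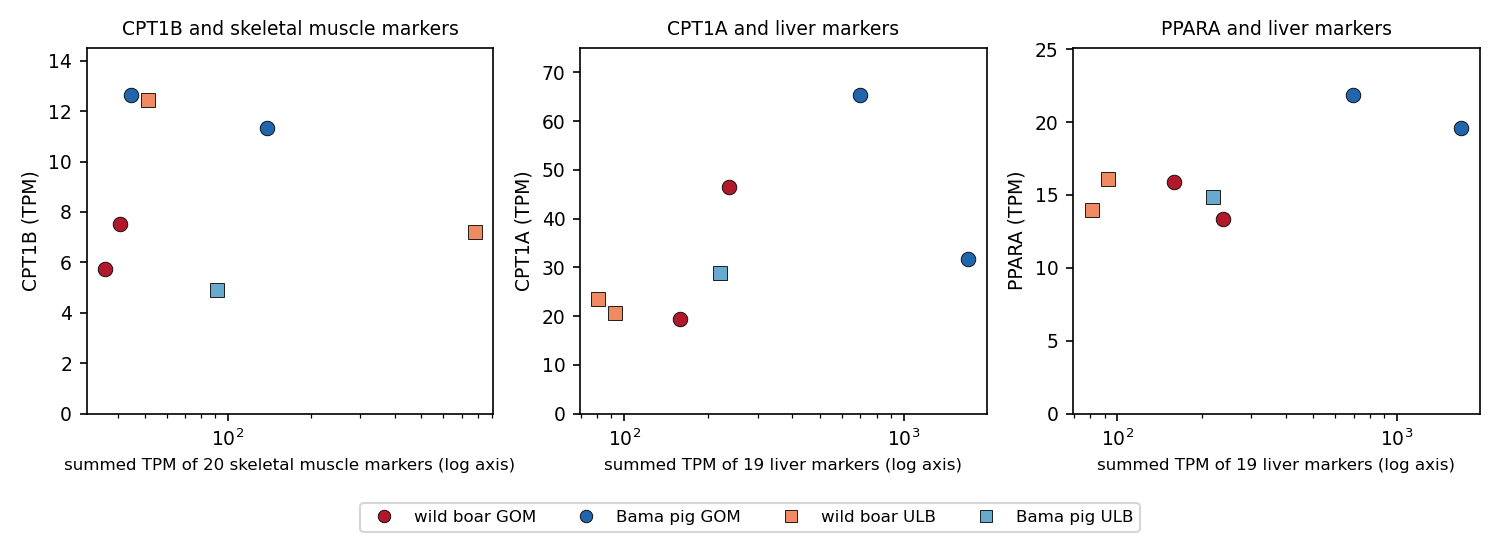
TPM of CPT1B against the summed TPM of 20 skeletal muscle markers, and of CPT1A and PPARA against the summed TPM of 19 liver markers (log x axes), with 1 point per library. CPT1B is at 7.21 in the library with a muscle sum of 780.1, and CPT1A is at 31.7 and PPARA at 19.6 in the library with a liver sum of 1697.6.

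ACADM (ENSSSCG00000003776, chr6:137541481-137575544, minus strand) showed the lowest ratio of GOM to ULB. Its TPM was 101.24 and 99.3 in WB-GOM, 148 and 223 in BM-GOM, 233 and 226 in WB-ULB, and 149 in BM-ULB. The 2 wild boar depots were far apart, with little difference between replicates, and the Bama pig depots overlapped. The log2 fold change of GOM against ULB was -0.64 (SE 0.29), with an unadjusted p of 0.0492 and an adjusted p of 0.249 by edgeR's quasi-likelihood test. In a fit of the wild boar libraries alone it was -1.001 (SE 0.24, adjusted p = 0.0894), and in the fit of all 4 groups it was -0.14 (SE 0.41) in Bama pig. The depots' difference between breeds was -0.81 (SE 0.54, adjusted p = 0.986), so the breeds were not shown to differ in it. Leaving out WB-ULB replicate 1, the library with muscle RNA, gave -0.51 (SE 0.34, adjusted p = 0.553) between depots. With an offset for transcript length it was -0.75 (SE 0.24, adjusted p = 0.122).

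ACADL (ENSSSCG00000016156, chr15:112935631-112969381, minus strand) followed a similar order in wild boar. Its TPM was 70.8 and 78.4 in WB-GOM, 79.2 and 130 in BM-GOM, 147 and 113 in WB-ULB, and 64.5 in BM-ULB. Both WB-GOM libraries were below both WB-ULB libraries, while both BM-GOM libraries were above the BM-ULB library in TPM. In CPM the Bama pig depots overlapped (70.5 and 125 in GOM, 83.0 in ULB). The log2 fold change between depots was -0.25 (SE 0.31), and it was -0.015 (SE 0.34) without WB-ULB replicate 1. In ULB wild boar exceeded Bama pig by 0.91 on the log2 scale (SE 0.49, adjusted p = 0.391 by edgeR's quasi-likelihood test), and by 0.61 (SE 0.59) without that library.

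ACADVL (ENSSSCG00000017947, chr12:52573521-52581755, plus strand) varied most between libraries, by a factor of 3.76 in CPM. Its TPM was 45.6 and 67.4 in WB-GOM, 30.8 and 73.9 in BM-GOM, 54.9 and 67.3 in WB-ULB, and 25.3 in BM-ULB. In TPM the 2 BM-GOM libraries were far apart, and the other 2 groups with replicates lay between them. Wild boar against Bama pig gave a log2 fold change of 0.70 (SE 0.53) in GOM and 1.154 (SE 0.60, adjusted p = 0.386 by edgeR's quasi-likelihood test) in ULB. Without BM-GOM replicate 2, the library with the most liver RNA, the GOM value was 1.57 (SE 0.50, adjusted p = 0.299), and without replicate 1 it was 0.17 (SE 0.47).

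HADHA (ENSSSCG00000008571) is the subunit with the hydratase and dehydrogenase activities. Its TPM was 126 and 122 in WB-GOM, 115 and 126 in BM-GOM, 135 and 126 in WB-ULB, and 68.1 in BM-ULB. In CPM all 4 wild boar libraries (243 to 319) were above all 3 Bama pig libraries (150 to 210), and HADHA was the only member with breeds separated in the same direction over all libraries. Over all genes the share was 10.9% (5.01% higher and 5.87% lower in wild boar). The log2 fold changes were 0.63 (SE 0.39, adjusted p = 0.663) in GOM and 0.84 (SE 0.41, adjusted p = 0.36) in ULB by edgeR's quasi-likelihood test.

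HADHB (ENSSSCG00000008569), read from the other side of the shared interval printed above, had a TPM of 163 and 181 in WB-GOM, 133 and 225 in BM-GOM, 206 and 211 in WB-ULB, and 97.9 in BM-ULB. In TPM the lowest library was BM-ULB, as for HADHA. In CPM the lowest HADHB was in BM-GOM replicate 1 (108, against 115 in BM-ULB), while HADHA stayed lowest in BM-ULB. Its log2 fold changes between breeds were 0.52 (SE 0.44) in GOM and 0.98 (SE 0.48, adjusted p = 0.361 by edgeR's quasi-likelihood test) in ULB, both in the direction of HADHA. Between depots the values were 0.15 (SE 0.29) for HADHB and 0.24 (SE 0.24) for HADHA. The ratio of HADHB to HADHA in TPM stayed between 1.16 and 1.78.

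PPARA (ENSSSCG00000000006, chr5:3302755-3321091, minus strand) varied least, by a factor of 1.55 in CPM over the 7 libraries. Its TPM was 13.3 and 15.9 in WB-GOM, 21.8 and 19.6 in BM-GOM, 16.1 and 14.0 in WB-ULB, and 14.9 in BM-ULB. BM-GOM was highest in TPM, but not in CPM, where the 4 GOM libraries had 40.0 and 56.1 in wild boar and 44.8 and 43.7 in Bama pig. The log2 fold changes were 0.13 (SE 0.24) between depots, 0.11 (SE 0.36) between breeds in GOM and -0.09 (SE 0.39) between breeds in ULB. BM-GOM was also the group with the most liver RNA, and its part in the TPM of PPARA was not tested.

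The members were also counted by whether their groups overlapped. Between depots, 0 of 9 had GOM and ULB libraries that did not overlap in CPM, against 13.4% of all genes (7.95% higher and 5.42% lower in GOM). Within wild boar it was 3 of 9 (CPT1A higher and ACADM and ACADL lower in GOM), against 50.9% (27.4% higher and 23.5% lower). Between breeds in GOM it was 2 of 9 (HADHA higher and CPT1B lower in wild boar), against 41.2% (19.7% higher and 21.5% lower). In ULB, where 1 Bama pig library was compared, it was 8 of 9 against 82.4%, with 6 higher (39.8% of all genes) and 2 lower (42.6%) in wild boar. The median log2 fold change over the members was 0.13 between depots, 0.10 between breeds in GOM and 0.84 between breeds in ULB, beside medians over all genes of 0.02, -0.01 and 0.003. With the offset for transcript length the median over all genes moved to -0.11 in ULB, and the 6 members with positive values there kept that sign.

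For CPT1A, CPT1B and PPARA, the genes with the most similar profile were found by the root-mean-square difference of centred log2 CPM over the 7 libraries, among 11514 genes. They were HDAC7 (0.077), CRYBG1 (0.104) and TACC2 (0.108) for CPT1A, whose own spread was 0.474. For CPT1B (0.336) they were UBR1 (0.097), KHDC4 (0.111) and WDR89 (0.113), and for PPARA (0.182) they were VWA8 (0.051), PDAP1 (0.081) and ICA1 (0.084).

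Of 64 further genes of the pathway, 59 were matched and tested, and the other 5 were not analysed here. Between depots 2 of the 59 passed both thresholds, against 3.58% of all genes, and both were lower in GOM and in the list of regulators and PPAR targets. PPARGC1A, a coactivator that promotes mitochondrial biogenesis and fatty acid oxidation, had a TPM of 0.58 and 0.32 in WB-GOM, 1.01 and 0.52 in BM-GOM, 5.05 and 3.24 in WB-ULB, and 4.57 in BM-ULB. All ULB libraries were above all GOM libraries, and PPARGC1A was lower in GOM with a log2 fold change of -3.03 (SE 0.435, adjusted p = 0.00464 by edgeR's quasi-likelihood test). It was -2.81 without WB-ULB replicate 1, the library with muscle RNA (adjusted p = 0.025). Without the BM-ULB library the log2 fold change was -3.06 and the call was lost (adjusted p = 0.0649). ANGPTL4, a secreted inhibitor of lipoprotein lipase and a target of the PPARs, had a TPM of 20.5 and 12.5 in WB-GOM, 55.9 and 16.5 in BM-GOM, 39.1 and 85.2 in WB-ULB, and 98.8 in BM-ULB. Its depots overlapped in 1 pair of libraries, BM-GOM replicate 1 and WB-ULB replicate 1. The log2 fold change was -1.78 (SE 0.39, adjusted p = 0.0331 by edgeR's quasi-likelihood test). This call was lost without the BM-ULB library (adjusted p = 0.192) and without either WB-GOM library or WB-ULB replicate 2 (adjusted p = 0.0616, 0.0903 and 0.117). The summed mesothelial and lymphocyte markers were higher in every GOM library, and their part in both calls was not tested.

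The 59 genes had 11 with an unadjusted p below 0.05 between depots, 5 higher and 6 lower in GOM, against 19.9% of all genes. OXCT1, which activates ketone bodies for use in the mitochondrion, had the highest mean TPM of the ketone body list, with 335 to 484 in GOM and 642 to 1318 in ULB. Its groups did not overlap, and its log2 fold change was -1.20 (SE 0.32, adjusted p = 0.0677 by edgeR's quasi-likelihood test). With the offset for transcript length it was -1.31 and passed (adjusted p = 0.0294). OXCT1 also passed by the DESeq2 Wald test (-1.25, adjusted p = 0.00153) and by edgeR without the filter (-1.20, adjusted p = 0.039), but in no other alternative. PDK4, a kinase that holds back glucose oxidation and rises with fasting, had the highest mean TPM of all 59, at 987.23. It differed widely within groups, with a TPM of 192 and 2968 in WB-ULB, 257 and 1363 in WB-GOM, and 1571 and 309 in BM-GOM.

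The mitochondrial spiral beyond the members comprised 15 genes, of which 0 passed both thresholds in any comparison. Between breeds 14 of the 15 had positive log2 fold changes in GOM (median 0.61) and 14 of 15 in ULB (median 0.83). The medians over all genes were -0.01 and 0.003. The 15 genes were read in the same libraries, with only 1 Bama pig library in ULB, so they are not independent observations of a breed difference. Of the 15 genes, 10 were in the 2 groups of shortest transcripts of 5 groups of equal size, with median deviations of -0.37 and -0.16 in BM-GOM replicate 1 and of -0.26 and -0.17 in BM-ULB. With the offset for transcript length 12 of 15 were positive in GOM (median 0.44) and 14 of 15 in ULB (median 0.65). ACAT1, the thiolase of acetoacetyl-CoA, had a TPM of 151 to 329 over the libraries, and its log2 fold change was 0.45 (SE 0.42) in GOM and 0.83 (SE 0.49) in ULB. ECHS1, the short-chain enoyl-CoA hydratase, had a TPM of 172 and 297 in WB-GOM, 69.5 and 219 in BM-GOM, 433 and 315 in WB-ULB, and 67.5 in BM-ULB. Its log2 fold change between breeds in ULB was 2.37 (SE 0.81, unadjusted p = 0.0169, adjusted p = 0.27 by edgeR's quasi-likelihood test). With the offset for transcript length it was 2.17 (SE 0.74, adjusted p = 0.256), and without WB-ULB replicate 1 it was 2.02 (SE 0.91, adjusted p = 0.621).

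**Figure D4:**
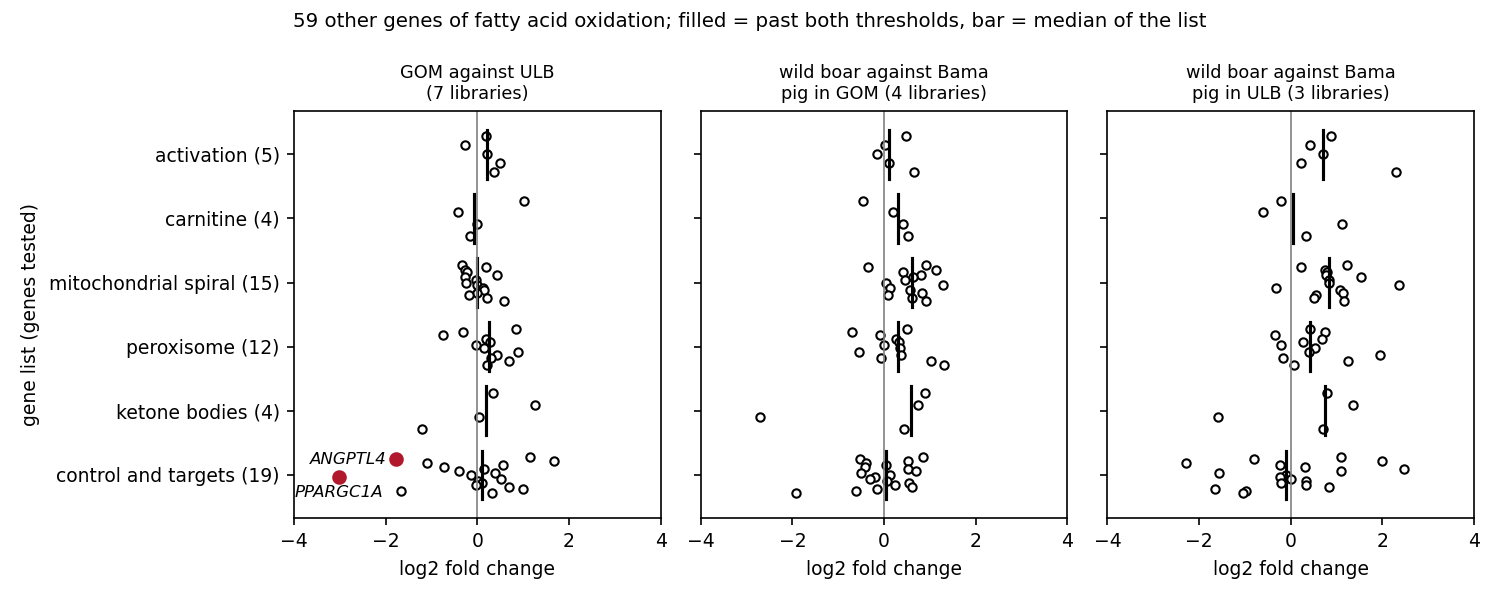
Log2 fold changes of 59 other genes of fatty acid oxidation in 6 lists, for GOM against ULB and for wild boar against Bama pig in each depot, with filled points for genes past both thresholds and a bar at each list's median. PPARGC1A and ANGPTL4 are the 2 filled points, and the spiral's median is 0.61 in GOM and 0.83 in ULB between breeds.

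In the other lists 0 genes were called in the comparisons described above, alternatives aside. ACSL1 and ACSL4, which activate long-chain fatty acids, had a mean TPM of 215 and 86.8, and CRAT and SLC25A20, an acetyl-carnitine transferase and the carnitine carrier of the inner membrane, had 67.3 and 58.4. Their log2 fold changes between depots were 0.18, 0.21, -0.43 and -0.16. HSD17B4 and PHYH, enzymes of peroxisomal β- and α-oxidation, had a mean TPM of 280 and 237 and log2 fold changes of 0.30 and 0.21. In the list of regulators and PPAR targets, ACACA, which makes the malonyl-CoA that inhibits CPT1, had a mean TPM of 206. Its log2 fold change between depots was 1.14 (SE 0.36, adjusted p = 0.114 by edgeR's quasi-likelihood test). By the DESeq2 Wald test it was 1.09 and passed (adjusted p = 0.0147), and ACACA passed in no other alternative.

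Hi-C gave a second readout at each gene. PC1, the first principal component of the contact map, has positive values in the open A compartment and negative values in the closed B compartment, and was read for the 20-kb bin of each start site. The files themselves call the score an A-B index, which the study defines as a separate measure, but its mean was 0 on each chromosome, as that of a principal component is. Of the 9 members, 8 had a positive PC1 in all 7 libraries, as did 78.5% of 13094 placed genes. ACADVL was near the top of its chromosome, with a PC1 of 35.5 to 43.6 (percentile 98.3 to 99.9), and CPT1A, CPT1B, CPT2, PPARA and the shared bin of HADHA and HADHB lay between 27.2 and 53.4. ACADL was lower, with 6.88 to 16.7.

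ACADM was negative in all 7 libraries, although its mean TPM was the second highest of the members. Its PC1 was -5.38 and -0.34 in WB-GOM, -0.25 and -15.2 in BM-GOM, -5.07 and -7.49 in WB-ULB, and -8.95 in BM-ULB. The groups overlapped and 2 values were within 1 unit of 0. Among 469 placed genes with a mean TPM at or above that of ACADM, 14 (2.99%) had a start in a bin that was negative throughout, against 9.99% of all placed genes. All 101 bins within 1000 kb of the ACADM start were negative in every library, but the start bin was among the 3 highest of these 101 in each library. Its PC1 exceeded the median of the bins 100 to 1000 kb away (-37.56 to -31.18) by 19.2 to 32.2 units. A start bin among the 3 highest of its 101 bins in every library was found for 121 of 12661 genes (0.956%), and 8 of these were negative throughout. The local peak was noticed in the plot before it was measured, and it is given without a test.

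**Figure D5:**
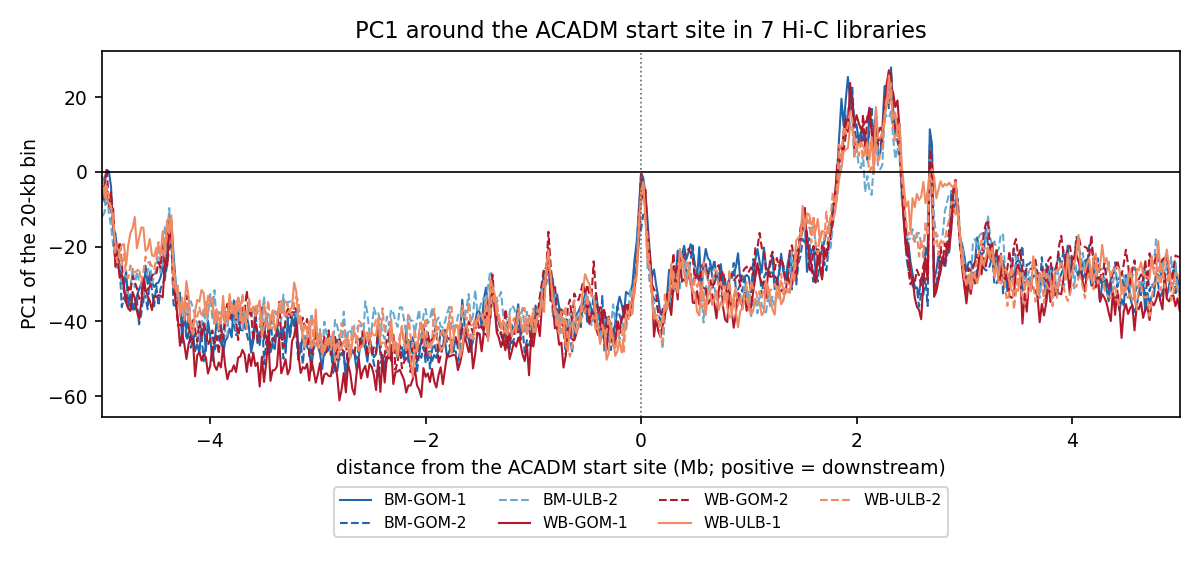
PC1 of 20-kb bins by distance from the ACADM start site, with positive distances downstream, in 7 Hi-C libraries (WB wild boar, BM Bama pig; solid lines replicate 1, dashed lines replicate 2). A narrow peak stands below 0 in all libraries, with its highest bin at the start site or up to 40 kb downstream. The nearest bin that is positive in every library is 1860 kb downstream.

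TADs, the contact domains, were listed once per breed and depot from merged replicates, so they have no replicate check. The start of ACADM fell in a TAD of 580 kb in BM-GOM and of 480 kb in BM-ULB, and in no listed TAD in either wild boar list. The start of ACADVL was in a TAD in the BM-ULB list alone (860 kb, 13 kb from its end). The other members were in a TAD in all 4 lists, and HADHA and HADHB shared one of 500 to 540 kb.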

How the data were processed

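RNA-seq and Hi-C values of 7 libraries each were used, and groups came from the sample labels. The authors deposited estimated counts per protein-coding gene and library, made with Kallisto (0.43.0 in the submitters' processing notes) on Sscrofa 11.1, without scaling between libraries. The authors also deposited TPM values, which summed to between 774260 and 956616 over the listed genes. The Hi-C score the authors deposited for each 20-kb bin is named A-B index in the files and was read as PC1 because it is centred on each chromosome, and their TAD lists were called once for each breed and depot. PC1 and TAD files hold no counts, so their depth is unknown.

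The members and gene lists were chosen with earlier results of these data known. Symbols came from a table of gene IDs, which named 14821 of 21280 genes. Estimated counts were rounded and tested with edgeR 4.0.16 (R 4.3.3) by the quasi-likelihood F test with TMM scaling and Benjamini-Hochberg adjustment, two-sided, keeping genes whose TPM exceeded 0.1 in all libraries of at least 1 group. Depots were compared with breed as a covariate, breeds in GOM on 4 libraries, and breeds in ULB and the interaction in a fit of 4 groups in which the lone BM-ULB library was assumed to vary like the rest. P-values measure the spread between these few libraries, and the depot fit counted libraries of 1 animal as separate. On simulated data with 200 genes changed 8-fold, 93.5% were recovered between depots, 78% between breeds in GOM, 78% in ULB and 56% for the interaction, with 7.88%, 6.02%, 5.45% and 18.25% of calls false.

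Named genes were the 9 members, pathway genes past both thresholds, the 2 with the highest mean TPM in each list, and the 3 nearest profiles of CPT1A, CPT1B and PPARA. A gene that this rule names is not reported here. Alternatives were DESeq2 1.42.0, limma 3.58.1 on log2(TPM + 1), other scalings and filters, a replicate block, each library left out and, chosen after seeing the data, an offset for transcript length. Other values used Python 3.11.15, numpy 2.4.6 and pandas 2.3.3, and plots matplotlib 3.10.9. Start sites and sequences came from RefSeq on Sscrofa11.1, whose 18 autosomes have the lengths of the PC1 files.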

Additional observations from a re-analysis of the deposited data

Results flagged for a closer look

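Of 28 features looked at in the 4 GOM libraries (23 named genes and 5 marker sums), 4 had a library far from the other 3. The cutoff marks about 1 in 20 groups when 4 values come from 1 normal distribution. These libraries came from 2 breeds and the features were not independent, so 4 of 28 cannot be read as an excess. PHYH had a TMM-scaled CPM of 397.99 in WB-GOM replicate 2 and 86.2 to 98.1 in the others. ACSL1 had 730.53 in the same library and 397 to 437 in the others. CRAT had 98.51 in BM-GOM replicate 2 and 135 to 138 in the others. The summed TPM of the skeletal muscle markers was 137.9 in BM-GOM replicate 1 and 36.0 to 44.8 in the others. The muscle markers ACTA1, TNNT3 and CKM had a TPM of 0.38, 0.0 and 1.76 in BM-GOM replicate 1. In WB-ULB replicate 1 they had 114.27, 106.13 and 70.46, so the raised sum in BM-GOM replicate 1 did not come from these markers. None of the 9 members was among the flagged features.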

How the results depend on the processing

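No member was called under any alternative, and 476 of 513 alternative member values kept their direction. The 37 that did not had an adjusted p of 0.469 or more. Between depots, CPT1B became -0.36 in wild boar libraries alone and -0.314 for wild boar in the fit of 4 groups, CPT2 0.094 and 0.141, and HADHB -0.077 and -0.027. ACADL was 0.239 for Bama pig in that fit, and CPT2 was 0.004 by limma. Between breeds in GOM, CPT1A was -0.106, ACADL -0.033 and PPARA -0.027 with upper-quartile scaling. By limma on log2(TPM + 1), which moves the median of all genes to -0.411, CPT1A was -0.579, ACADL -0.439, PPARA -0.477 and HADHB -0.011. CPT1A was -0.059 among genes with a TPM above 1, and ACADL was -0.058 with the length offset.

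Leaving out 1 library turned the direction of some member results. Between depots the ranges were -0.348 to 0.404 for CPT1B, -0.238 to 0.099 for CPT2, -0.063 to 0.282 for HADHB and -0.026 to 0.22 for PPARA. Between breeds in GOM they were -0.596 to 0.534 for CPT1A, -0.368 to 0.153 for CPT2, -0.619 to 0.108 for ACADM, -0.257 to 0.593 for ACADL and -0.192 to 0.328 for PPARA. In ULB PPARA ran from -0.288 to 0.088. For the interaction they were -0.083 to 1.054 for CPT1A, -0.968 to 0.414 for ACADVL, -0.814 to 0.063 for HADHB and -0.06 to 0.43 for PPARA.

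Counts of all genes called moved more. Between depots 640 became 1399 with DESeq2, 999 without the filter, 329 by limma, 318 in wild boar alone, 245 and 72 for wild boar and Bama pig in the fit of 4 groups, and 230 to 656 with 1 library left out (230 without BM-ULB replicate 2, 288 without WB-ULB replicate 1, 362 without WB-ULB replicate 2). Between breeds in GOM 4 became 167 with DESeq2, 26 without the filter, 0 by limma and 0 to 123 with 1 library left out (0 without either BM-GOM library, 123 and 84 without WB-GOM replicate 1 and 2). In ULB 45 became 418, 197 without the filter and 0 to 106 (106 and 86 without BM-GOM replicate 1 and 2, 0 and 3 without WB-ULB replicate 1 and 2). The interaction's 0 became 52 with DESeq2, 7 without the filter and 0 to 1. Of the 59 other genes, the 2 called between depots became 7 with DESeq2, 4 without the filter, 1 by limma (PPARGC1A), 0 in wild boar alone, 0 for either breed in the fit of 4 groups, and 0 to 2 with 1 library left out. The cause of these shifts was not tested.

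Whether a replicate number marks 1 animal was not stated. Deviations correlated weakly for WB-GOM with WB-ULB replicate 1 (r = 0.154). The value was much the same for WB-GOM with BM-GOM replicate 1 (r = 0.15), which are different animals, so it does not show whether libraries are paired. With the replicate block 793 genes were called between depots, 15 between breeds in GOM, 91 in ULB and 581 for the interaction. CPT1A was at -0.008 between breeds in GOM. Between breeds the block gave libraries with the same number in both breeds a shared term, although they come from different animals. The 15 and 91 calls are therefore not paired by animal and say nothing about pairing. Of the 59 genes, 5 were called between depots with the block. Among them were ESRRA (1.837, adjusted p = 0.0302) and UCP3 (-1.644, adjusted p = 0.00467) by edgeR's quasi-likelihood test. For the interaction 5 were called (ABCD2, EHHADH, ESRRA, PPARD and UCP2). In the interaction fit with the block, the Bama pig depot difference came from replicate 2 alone, and very little freedom was left to measure the spread. Its calls therefore carry little weight, and they do not show that pairing made the test more sensitive. With 2 animals per breed and 1 BM-ULB library, small differences could not be detected.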

Other observations

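Some ratios between members were formed after their values had been seen, and they are given without a test. The ratio of CPT1A to CPT1B in TPM was 6.18 and 3.38 in WB-GOM, 5.76 and 2.51 in BM-GOM, 2.88 and 1.88 in WB-ULB, and 5.85 in BM-ULB. The ratio of ACADM to ACADVL was lowest in WB-GOM (2.22 and 1.47) and highest in BM-ULB (5.89), and that of ACADL to ACADVL ran from 1.16 in WB-GOM replicate 2 to 2.68 in WB-ULB replicate 1. All of these overlapped between depots and between breeds.

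UCP3, a mitochondrial carrier typical of muscle, had a TPM of 153 in WB-ULB replicate 1, the library with muscle RNA, 35.8 in WB-ULB replicate 2, 179 in BM-ULB, 54.9 and 7.08 in WB-GOM, and 53.8 and 77.9 in BM-GOM. ESRRA, a nuclear receptor that works with PPARGC1A, had 21.5 and 22.7 in WB-GOM, 6.16 and 38.9 in BM-GOM, 11.09 and 12.75 in WB-ULB, and 2.78 in BM-ULB. Its log2 fold change between depots was 1.67 (SE 0.59, adjusted p = 0.157 by edgeR's quasi-likelihood test), in the direction opposite to that of PPARGC1A. For UCP3 it was -1.67 (SE 0.61, adjusted p = 0.169). With DESeq2 both passed (adjusted p = 0.0342 for ESRRA and 0.0396 for UCP3). Both genes were named after their values were seen.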
